A study of Mus musculus with 2 samples.

Results

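The 10 genes described here encode the receptors, ligands and integrin subunits by which the retinal pigment epithelium (RPE) binds and takes up shed photoreceptor outer segments, with the focal adhesion kinase that relays integrin binding. They were chosen by name (Mertk, Tyro3, Axl, Gas6, Pros1, Itgav, Itgb5, Mfge8, Cd36 and Ptk2), and all 10 were found among the 32285 genes of the deposited matrices. Their unique molecular identifiers (UMIs, each counting 1 captured RNA molecule) were summed per cell type and library. Levels are given as CPM, the gene's UMIs per 1000000 UMIs of the group. RPE cells were the barcodes with at least 10 UMIs of Rpe65, the retinoid isomerase that defines the RPE, and were split by Serpina3n, a secreted serine protease inhibitor, into Serpina3n-low (below 1000 CPM in the cell) and Serpina3n-high cells (at or above 1000 CPM).

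The study injected 1 µl of doxorubicin (Dox, a DNA-damaging topoisomerase poison, at 100 ng/µl) under the retina of 3-month-old C57BL/6J mice, and the paper's methods give phosphate-buffered saline for the control eyes. The tissue was taken 7 days later, and RPE, choroid and sclera were dissociated together. Each condition was 1 library of 5′ single-cell RNA pooled from 10 eyes of 5 mice. Both groups therefore shared strain, age, a subretinal injection and the dissociation, a subretinal drug reaches only part of the RPE, and differences between the pools of animals cannot be told apart from the effect of Dox. There is no replicate, so no test was made, and the 95% intervals (exact Poisson for a CPM, exact conditional binomial for a ratio, Clopper-Pearson for a share of cells) cover counting error only.

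After filtering, the control library held 20180 cells with a median of 4495 UMIs and the Dox library 15426 cells with a median of 4995 UMIs. RPE cells numbered 1526 in the control and 1630 in the Dox library, with medians of 16014 and 18116 UMIs. Of these, 2669 of 3156 lay in the RPE-like cluster of the unsupervised clustering, and 216 lay in an unnamed, shallow cluster led by Snhg7os. A further 163 lay in the melanocyte-like cluster and 76 (22 control and 54 Dox) in the Myoc-led fibroblast-like cluster. Serpina3n-high cells were 15 of the control RPE cells and 208 of the Dox RPE cells, with medians of 33954 and 28244 UMIs. The median doublet score of the 15 control cells was 0.324, against 0.128 in the control Serpina3n-low cells, and its part in their values was not tested. Of the 9 RPE markers, Rpe65 among them, 8 were above 10 CPM in all 4 RPE groups and Best1 was not. In each of the 11 clusters 8 of the 9 also reached 10 CPM, so this count does not tell RPE cells from other cells. The libraries shared 427 kept barcodes, 3 of them among RPE cells. RPE RNA was counted in every group of cells: Rpe65 was at 4966 CPM in control RPE cells and still at 264 CPM in control NK or T-like cells. RNA of fibroblasts was likewise present in RPE cells, where the summed level of 12 fibroblast markers was 1714 CPM in the control and 1031 CPM in the Dox library. The median per cell was 210.8 and 114.2 CPM and the highest 39928 and 55469 CPM, so the sum does not stand for each cell. Without the highest doublet scores the summed level was 612.3 and 408.8 CPM.

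The RPE takes up shed outer segment tips each day. Phosphatidylserine on the tips is bridged by Mfge8 to the αvβ5 integrin (Itgav and Itgb5), which tethers the tip and signals through focal adhesion kinase (Ptk2), and by Gas6 or protein S (Pros1) to Mertk, which triggers engulfment. Loss of Mertk causes retinal degeneration in the rat, the mouse and humans, whereas Tyro3 and Axl are the sister receptors of Mertk and Cd36 is a scavenger receptor that binds oxidised lipid.

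In GENCODE vM21 coordinates of GRCm38 (the mm10 build of the files), the bridging ligands were Gas6 (ENSMUSG00000031451, chromosome 8, 13465374 to 13494490, minus strand), Mfge8 (ENSMUSG00000030605, chromosome 7, 79133768 to 79149060, minus strand) and Pros1 (chromosome 16, 62854307 to 62929346, plus strand). Mertk (ENSMUSG00000014361, 128698956 to 128802894), Tyro3 (119797733 to 119818104) and Itgav (83724397 to 83806916) all lie on the plus strand of chromosome 2. Axl lies on chromosome 7 (25757273 to 25788705), Itgb5 on chromosome 16 (33829665 to 33949338), Cd36 on chromosome 5 (17781690 to 17888801) and Ptk2 on chromosome 15 (73205102 to 73423280).

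The promoters of Gas6, Mfge8 and Mertk are shown because these 3 genes differed most between Serpina3n-high and Serpina3n-low RPE cells of the Dox library among the genes with at least 200 UMIs over both groups. Each run is the 250 bases before the RefSeq transcription start in GRCm38.p6, 5′ to 3′ on the gene's strand, from chr8:13494536-13494785 (minus), chr7:79149061-79149310 (minus) and chr2:128698665-128698914 (plus). Capitals mark the GC box GGGCGG on either strand.
Gas6: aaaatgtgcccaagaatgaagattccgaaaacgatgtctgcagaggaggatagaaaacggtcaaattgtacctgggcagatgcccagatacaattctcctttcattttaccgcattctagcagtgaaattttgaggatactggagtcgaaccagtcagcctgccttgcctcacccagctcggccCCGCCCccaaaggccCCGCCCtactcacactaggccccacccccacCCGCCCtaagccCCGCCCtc
Mfge8: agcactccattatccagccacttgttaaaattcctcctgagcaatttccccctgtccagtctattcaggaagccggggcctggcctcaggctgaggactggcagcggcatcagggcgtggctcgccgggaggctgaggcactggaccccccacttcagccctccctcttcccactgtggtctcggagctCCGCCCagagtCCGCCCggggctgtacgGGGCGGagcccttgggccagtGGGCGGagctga
Mertk: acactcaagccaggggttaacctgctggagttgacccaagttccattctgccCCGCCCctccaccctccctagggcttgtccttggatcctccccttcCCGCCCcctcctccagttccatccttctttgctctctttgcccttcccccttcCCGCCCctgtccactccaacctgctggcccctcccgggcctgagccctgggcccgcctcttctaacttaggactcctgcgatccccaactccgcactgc
The Gas6 window held 4 GC boxes, the Mfge8 window 4 and the Mertk window 3, and 32.7% of the 32851 mouse promoter windows of this length held at least 1. GC content was 54.8% for Gas6, 65.2% for Mfge8 and 63.6% for Mertk, against a median of 52.4% over all windows. The other motifs searched on both strands were the OTX site TAATCC (in 6.25% of all windows), the E-box CACGTG (6.02%), the M-box core CATGTG (12.3%), the STAT site TTCNNNGAA (7.02%), the AP-1 site TGANTCA (6.75%) and the TATA box TATAAA (12.4%). They had 0 matches in these 3 windows, which says only that those letters are not there. Of the 10 genes, 9 had a RefSeq window, and Ptk2 was not among them.

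The genes differed in the group that held most of their UMIs. In both libraries RPE cells held the largest share for Mertk, Tyro3 and Itgav, and macrophage-like cells for Cd36. For Axl, Gas6, Pros1, Mfge8, Itgb5 and Ptk2 it was held by the Myoc-led fibroblast-like cells. Mertk, the receptor tyrosine kinase that triggers engulfment, was at 50.01 CPM (47.3 to 52.8) in control RPE cells and 51.3 CPM (48.8 to 53.9) in Dox RPE cells. RPE cells held 47.2% of all Mertk UMIs of the kept control cells and 60.2% of those of the Dox cells, although they held 22.8% and 31.4% of the UMIs of all genes. The Snhg7os-led cluster had a like Mertk level (50.7 CPM, 42.5 to 59.9, in the control), and its interval overlapped that of RPE cells in both libraries. Smooth muscle-like cells followed at 40.9 CPM (35.4 to 47.0) and 47.9 CPM (39.2 to 58.1), and endothelial-like cells at 39.0 and 32.0 CPM. The median RPE marker stood at 4.71% of its RPE level in control smooth muscle-like cells, which corresponds to 2.35 CPM of Mertk. In control endothelial-like cells it stood at 4.41%, which corresponds to 2.21 CPM. The part of free RNA and doublets in the Mertk levels of these cells was not tested. NK or T-like cells had 6.85 and 7.05 CPM. With each cell thinned to 1000 UMIs, a Mertk UMI was found in 5.38% of control and 6.32% of Dox RPE cells, against 0.699% and 1.20% of NK or T-like cells, whose median depths were 3814 and 4005 UMIs. Without thinning, 51.6% of control and 56.0% of Dox RPE cells had a Mertk UMI.

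Tyro3 was the gene with the clearest RPE order: RPE cells ranked first in both libraries and no other group's interval reached theirs apart from the sparse Schwann-like cells. It was at 26.0 CPM (24.1 to 28.1) in control and 30.2 CPM (28.3 to 32.2) in Dox RPE cells, and the Snhg7os-led cluster was next at 11.2 and 18.2 CPM. RPE cells held 59.2% of control and 68.2% of Dox Tyro3 UMIs. Macrophage-like cells had 1.94 and 3.31 CPM.

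Axl had the reverse distribution. RPE cells ranked last in both libraries, with 8.85 CPM (7.75 to 10.1) in the control and 5.45 CPM (4.66 to 6.33) in the Dox library. The Dpt-led fibroblast-like cells were highest, with 282.3 CPM (246.3 to 322) in the control and 417.9 CPM (363.4 to 478.2) in the Dox library. The Myoc-led fibroblast-like cells (83.2 and 88.1 CPM), smooth muscle-like cells (80.7 and 80.7 CPM), the Cxcl10-led cluster (79.0 and 78.8 CPM) and macrophage-like cells (76.9 and 68.5 CPM) had nearly equal levels with overlapping intervals among neighbours. The median fibroblast marker stood in control RPE cells at 8.22% of its level in Myoc-led fibroblast-like cells. That share corresponds to 6.83 CPM of Axl, or 77.2% of the level measured, and to 4.97 CPM (91.2%) in Dox RPE cells. This share was computed after the levels had been seen, and the part of fibroblast RNA in the Axl level of RPE cells was not tested.

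Pros1, which encodes protein S, was also lowest in RPE cells, with 6.27 CPM (5.35 to 7.30) and 5.96 CPM (5.14 to 6.88). The fibroblast marker share corresponded to 73.2% of the level in the control and 54.7% in the Dox library. It was 65.4% in Serpina3n-low and 15.4% in Serpina3n-high cells of the Dox library. In the control these were 73.2% and 98.1%, the last from 2 Pros1 UMIs. The part of fibroblast RNA in the Pros1 levels was not tested. Endothelial-like cells were highest at 87.0 and 96.1 CPM, but their intervals overlapped those of the Schwann-like and Dpt-led fibroblast-like cells.

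Gas6, the other ligand of the family, had UMIs in all groups, which alone does not show expression in each. Among NK or T-like cells its level was 59.7 CPM for the control and 71.3 CPM for the Dox library. In the control library the Dpt-led fibroblast-like (279.7 CPM), endothelial-like (279.0 CPM) and Myoc-led fibroblast-like cells (269.2 CPM, 265.1 to 273.4) could not be ordered beyond counting error, and RPE cells were ninth of 11 groups at 93.2 CPM (89.6 to 97.0). In the Dox library endothelial-like cells stood at 338.2 CPM and Myoc-led fibroblast-like cells at 308.2 CPM. RPE cells were seventh there at 184.4 CPM (179.6 to 189.2). The share of fibroblast markers corresponded to 23.7% of the Gas6 level of control RPE cells and 9.42% of that of Dox RPE cells. The part of free RNA in the RPE levels was not tested. The RPE share of all Gas6 UMIs was 10.7% in the control and 23.4% in the Dox library, and that of the Myoc-led fibroblast-like cells was 69.9% and 61.6%.

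Mfge8, the bridge to the integrin, had its highest levels in smooth muscle-like and endothelial-like cells. Most of its UMIs were nevertheless in Myoc-led fibroblast-like cells, which held 51.5% in the control and 56.4% in the Dox library. These cells held 51.4% and 49.4% of the UMIs of all genes. The share of smooth muscle-like cells was 18.8% and 12.1%, and that of endothelial-like cells 4.87% and 3.63%. Smooth muscle-like cells had 455.4 CPM (436.5 to 474.9) in the control and 482.1 CPM (453.3 to 512.2) in the Dox library, and endothelial-like cells had 339.6 and 402.3 CPM, in each library with no overlap of their intervals. RPE cells had 31.4 CPM (29.3 to 33.6) and 31.7 CPM (29.8 to 33.8), the lowest value of the groups apart from control Schwann-like cells, which had 0 UMIs in 48 cells, where 3 UMIs would be 20.7 CPM. In the Dox library the intervals of NK or T-like (31.8 to 55.2) and Schwann-like cells overlapped that of RPE cells. Thinned to 1000 UMIs, 32.0% of control smooth muscle-like cells had an Mfge8 UMI against 2.69% of control RPE cells and 3.26% of control NK or T-like cells. In the Dox library the last 2 shares were 2.70% and 2.39%, so at this depth RPE and NK or T-like cells had like shares. Fibroblast markers corresponded to 26.4% of the Mfge8 level of control RPE cells and 17.7% of that of Dox RPE cells. The part of free RNA in the Mfge8 level of RPE cells was not tested.

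The 2 integrin subunits differed in place. Itgav (αv) was at 170.3 CPM (165.3 to 175.3) in control and 182.9 CPM (178.2 to 187.8) in Dox RPE cells, which held 41.8% and 52.7% of its UMIs. RPE cells ranked first in the control, with the interval of the Schwann-like cells overlapping theirs, and were second in the Dox library to the Snhg7os-led cluster (213.7 CPM, 190.4 to 239.0), whose interval did not overlap. Itgb5 (β5) was highest in Myoc-led fibroblast-like cells (118.0 and 134.9 CPM) and the Cxcl10-led cluster (113.3 and 133.8 CPM), with the Dpt-led fibroblast-like cells (95.8 and 132.7 CPM) overlapping both in each library, whereas RPE cells had 57.9 CPM (55.0 to 60.9) and 59.9 CPM (57.2 to 62.6). Ptk2 was at 28.6 CPM (26.6 to 30.7) and 30.0 CPM (28.1 to 32.0) in RPE cells, and the highest levels were those of Schwann-like cells (200.5 and 218.6 CPM, from 29 and 25 UMIs).

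Cd36 was a macrophage gene in these libraries. Macrophage-like cells had 75.6 CPM (68.2 to 83.4) and 64.2 CPM (55.5 to 73.9), and held 57.5% and 69.3% of its UMIs. RPE cells had 30 UMIs (1.14 CPM) in the control and 11 UMIs (0.353 CPM) in the Dox library, below the minimum of 50 UMIs set for a ratio. Thinned to 1000 UMIs, 0.197% of control and 0.246% of Dox RPE cells had a Cd36 UMI, below the 1.17% and 0.797% of NK or T-like cells.

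**Figure D1:**
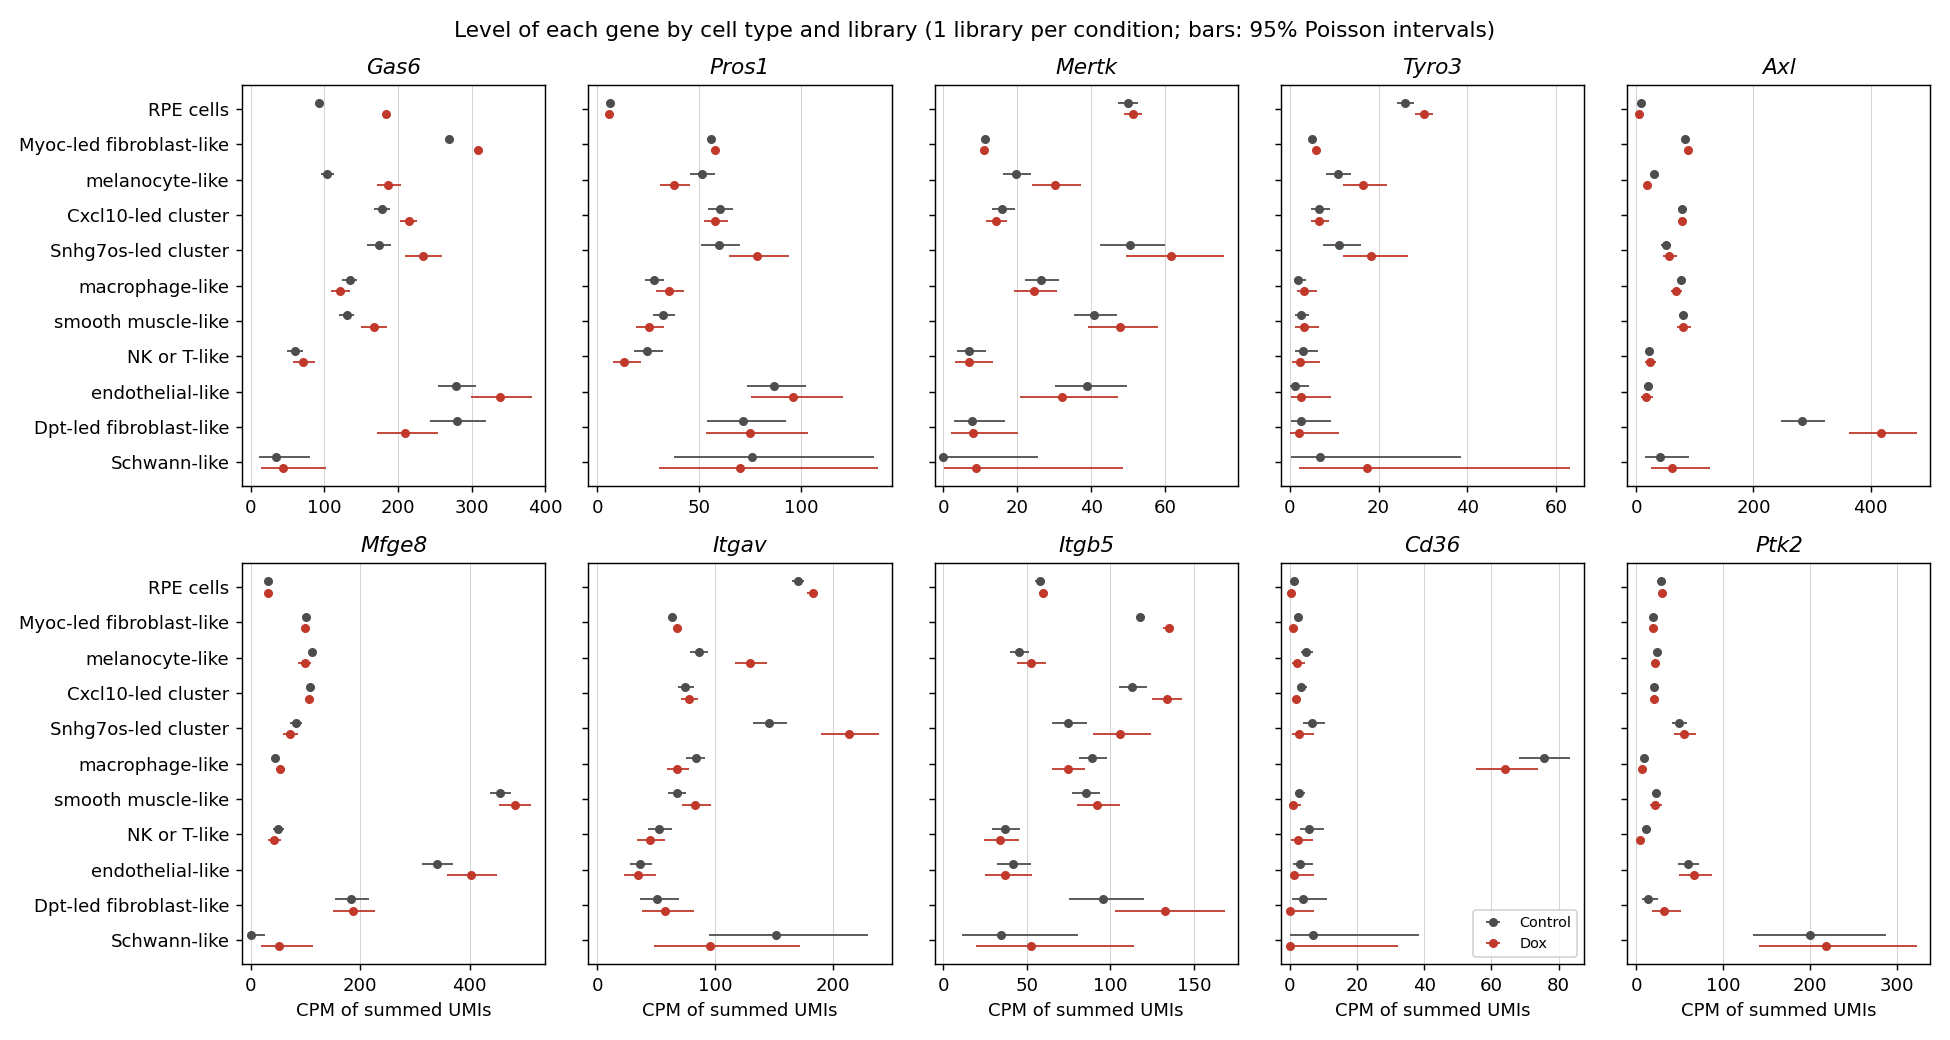
CPM of summed UMIs (horizontal axis, 1 panel per gene) for RPE cells and 10 other groups of cells, in the control (grey) and Dox (red) library, with bars for 95% Poisson intervals. Tyro3 was highest and Axl and Pros1 were lowest in RPE cells, Mfge8 peaked in smooth muscle-like cells at 455.4 and 482.1 CPM, and Cd36 stood out in macrophage-like cells at 75.6 and 64.2 CPM.

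**Figure D2:**
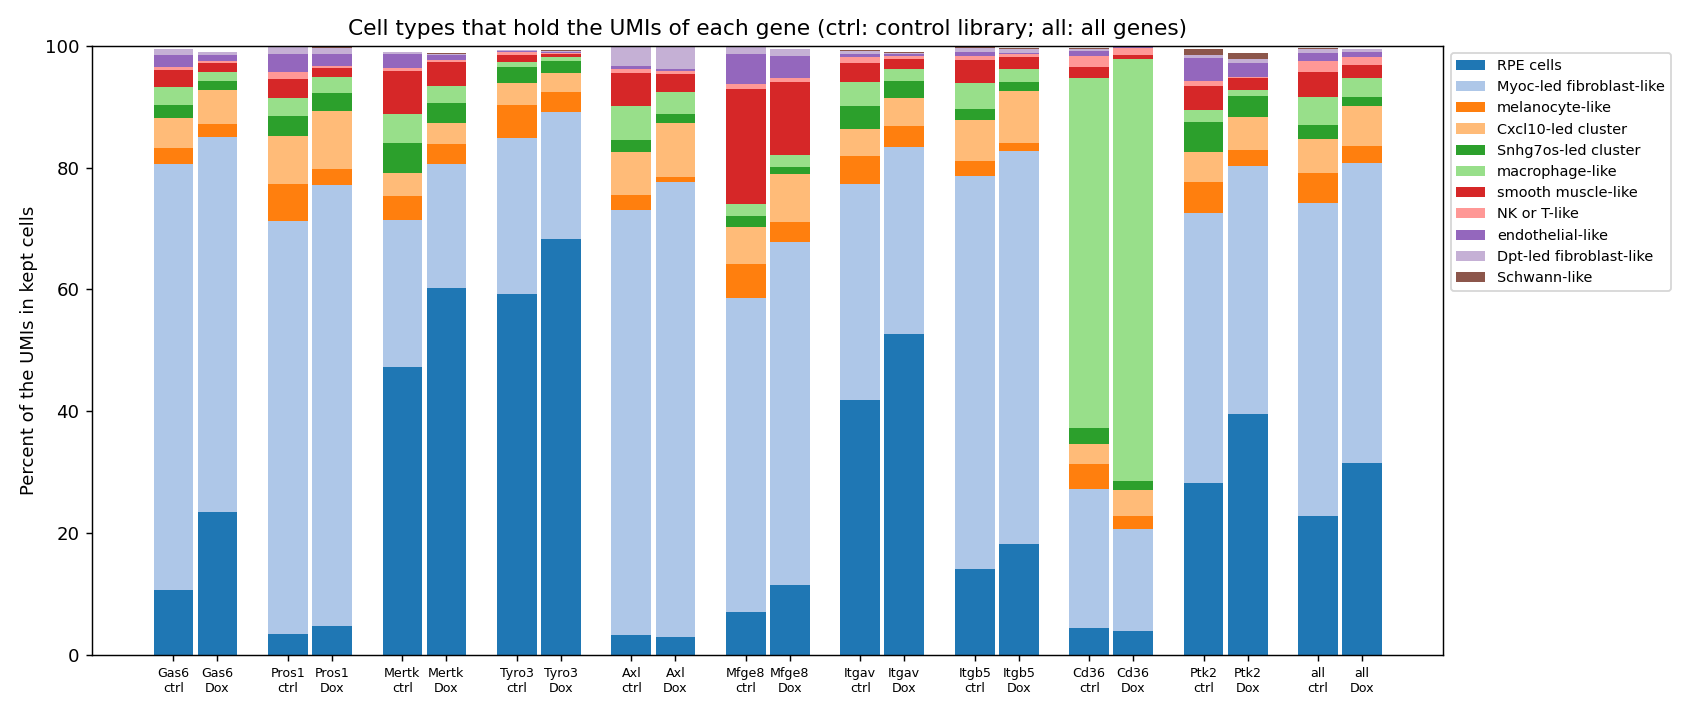
Percent of each gene's UMIs (vertical axis) held by each group of cells, with control and Dox bars side by side and the UMIs of all genes at the right. The remainder up to 100 belongs to RPE-like cluster cells with fewer than 10 Rpe65 UMIs. RPE cells held 47.2% and 60.2% of Mertk UMIs but 3.29% and 2.94% of Axl UMIs.

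Outside the RPE, the log2 ratio of Gas6 between the libraries was 0.20 (0.16 to 0.23) in Myoc-led fibroblast-like cells, 0.27 (0.15 to 0.38) in the Cxcl10-led cluster, 0.36 (0.17 to 0.55) in smooth muscle-like cells and -0.41 (-0.76 to -0.07) in Dpt-led fibroblast-like cells. It was 0.43 (0.22 to 0.63) in the Snhg7os-led cluster, 0.28 (0.05 to 0.50) in endothelial-like cells and 0.26 (-0.15 to 0.66) in NK or T-like cells. Melanocyte-like cells had the largest Gas6 ratio outside the RPE, 0.84 (0.67 to 1.01), from 104.3 to 186.8 CPM. In these cells the median RPE marker moved too, from 11.4% of its RPE level in the control to 32.0% in the Dox library, and its part in the Gas6 ratio was not tested. It was also higher in the Dox library in every other group outside the RPE. In Myoc-led fibroblast-like cells it went from 3.91% to 5.47%, which corresponds to 3.64 and 10.1 CPM of Gas6. In the Snhg7os-led cluster it went from 12.2% to 20.6%. The part of RPE RNA in these Gas6 ratios was not tested. Macrophage-like cells had 134.2 and 121.4 CPM of Gas6, a ratio of -0.14 (-0.33 to 0.04). Axl in Dpt-led fibroblast-like cells had a ratio of 0.57 (0.29 to 0.84) from 114 control and 68 Dox cells. Whether any of these ratios differed from that of RPE cells was not tested.

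The first comparison asked what Dox changed in RPE cells as a whole. A gene was called when its ratio passed 1.5-fold with at least 50 UMIs over both groups. Gas6 was the gene that rose, from 93.2 CPM (2453 UMIs) in the control to 184.4 CPM (5752 UMIs) in the Dox library, a log2 ratio of 0.98 (0.92 to 1.05) or 1.98-fold. That was 1 of the 9 genes with enough UMIs, where 1.65% of the 12772 genes tested were at least 1.5-fold higher. The ratio of Gas6 lay above that of 99.5% of the genes tested. It was 1.17 among RPE cells whose fibroblast marker level was below the median of all RPE cells, 1.13 without the highest doublet scores and 1.03 within the RPE-like cluster.

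Axl was the gene that fell, by 0.70 on the log2 scale (interval -0.99 to -0.41), from 233 to 170 UMIs, where 4.92% of genes were at least 1.5-fold lower. The fibroblast marker level fell as well, from 1714 to 1031 CPM. Among RPE cells below the median fibroblast level, where that level was 69.8 and 57.6 CPM, the Axl ratio was -0.91. The call was lost with at least 5 Rpe65 UMIs (-0.16) and with the mean of the cells' own CPM (-0.40). The part of fibroblast RNA in the Axl ratio was not tested.

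The other receptors, ligands and integrin subunits with enough UMIs, and the kinase, did not pass the fold. Mertk had a log2 ratio of 0.04 (-0.07 to 0.14), Itgb5 of 0.05 (-0.05 to 0.15), Mfge8 of 0.02 (-0.12 to 0.15), Ptk2 of 0.07 (-0.07 to 0.21) and Pros1 of -0.07 (-0.38 to 0.24). Those of Tyro3 (0.21, 0.07 to 0.36) and Itgav (0.10, 0.05 to 0.16) had intervals above 0. The median over the 9 genes was 0.05 and that over all genes tested was -0.01.

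Splitting RPE cells by Serpina3n showed where the Gas6 difference lay. In Serpina3n-low cells Gas6 was at 91.0 CPM (2353 UMIs) in the control and 129.9 CPM (3331 UMIs) in the Dox library. This log2 ratio of 0.51 (0.44 to 0.59) was short of 1.5-fold, but Gas6 passed it with a split at 2000 CPM (0.59), a low fibroblast level (0.61), without the highest doublet scores (0.62), with the mean of the cells' own CPM (0.62) and with cells thinned to 5000 UMIs (0.63). Serpina3n-high cells had 220.9 CPM (100 UMIs in 15 cells) in the control and 434.9 CPM (2421 UMIs in 208 cells) in the Dox library. In the Dox library Gas6 was thus 3.35-fold higher in Serpina3n-high than in Serpina3n-low cells, a log2 ratio of 1.74 (1.67 to 1.82), and in the control 2.43-fold higher (1.28, 0.98 to 1.57). At matched depth of 5000 UMIs per cell, 81.0% (74.8 to 86.3) of Dox Serpina3n-high cells had a Gas6 UMI, against 40.7% (38.0 to 43.5) of Dox Serpina3n-low and 33.3% (30.8 to 35.9) of control Serpina3n-low cells. Of the 15 control Serpina3n-high cells, 14 reached 5000 UMIs and 64.3% (35.1 to 87.2) of these had one. Per cell, Dox Serpina3n-high values ran from 0 to 2488 CPM with a median of 391.4, and Dox Serpina3n-low values from 0 to 3278 CPM with a median of 71.4, so the groups overlapped. In control Serpina3n-high cells they ran from 0 to 451.2 CPM with a median of 156.2.

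Mfge8, the integrin bridge, was also higher in Serpina3n-high cells. Among Dox cells it was at 48.7 CPM (271 UMIs) against 28.0 CPM (719 UMIs) in Serpina3n-low cells, a log2 ratio of 0.80 (0.59 to 0.999). In the control it was at 92.8 CPM (42 UMIs) against 30.3 CPM (784 UMIs), a ratio of 1.61 (1.13 to 2.06), with 23.8% of those 42 UMIs in a single cell. With cells thinned to 5000 UMIs both ratios were smaller, 0.45 in the Dox library, where the call was lost, and 0.70 in the control. A single Dox Serpina3n-low cell held 4.73% of that group's Mfge8 UMIs.

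Mertk was lower in Serpina3n-high cells. Among Dox cells it was at 34.3 CPM (191 UMIs) against 55.0 CPM (1409 UMIs), a log2 ratio of -0.68 (-0.91 to -0.46). In the control it was at 22.1 CPM (10 UMIs) against 50.5 CPM (1306 UMIs), a ratio of -1.19 (-2.26 to -0.31). Serpina3n-high cells were deeper, and thinned to 5000 UMIs the Dox ratio was -0.38, short of the fold. The share of cells with a Mertk UMI at that depth was 20.5% (15.1 to 26.9) in Dox Serpina3n-high and 23.6% (21.3 to 26.1) in Dox Serpina3n-low cells, and these intervals overlapped. Most genes were lower in Serpina3n-high cells, by a median of -0.18 in the Dox library, and centred on that median the Mertk ratio was -0.50.

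The sister receptors and the kinase were also lower in Serpina3n-high than in Serpina3n-low cells of the Dox library. So were most genes tested (median -0.18). The ratio of Tyro3 lay above that of 23.5% of these genes, that of Ptk2 above 33.0% and that of Axl above 7.62%. Tyro3 was at 22.3 against 31.9 CPM, a log2 ratio of -0.52 (-0.80 to -0.24), and Ptk2 at 24.1 against 31.2 CPM, -0.38 (-0.65 to -0.11), neither past the fold. Axl was at 2.87 CPM (16 UMIs) against 6.01 CPM (154 UMIs), a ratio of -1.06 (-1.91 to -0.32). The fibroblast marker level was 412.7 CPM in Serpina3n-high and 1165 CPM in Serpina3n-low cells of that library. Among cells below the median fibroblast level the Axl ratio turned to 0.23. Only 7 genes reached the minimum of UMIs there, against 9 among all cells, so this Axl ratio may rest on fewer UMIs than the minimum. The part of fibroblast RNA in the Axl difference was not tested. Itgb5 had 54.4 against 61.0 CPM, a ratio of -0.17 (-0.35 to 0.01), and Pros1 had 7.55 against 5.62 CPM, 0.43 (-0.11 to 0.93).

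In all, 2 of the 9 genes tested (Gas6 and Mfge8) were at least 1.5-fold higher in Dox Serpina3n-high than Serpina3n-low cells, where 4.71% of 11660 genes were, and 2 (Mertk and Axl) were lower, where 20.3% of genes were. In the control, Gas6 and Mfge8 were higher (10.7% of 11580 genes) and Mertk and Itgav were lower (30.3% of genes). The shares of genes called lower show how common such a ratio was, and in the control it was computed from 15 cells.

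Itgav differed between the libraries within Serpina3n-high cells. It was at 81.7 CPM (37 UMIs) in the control and 193.3 CPM (1076 UMIs) in the Dox library, a log2 ratio of 1.24 (0.77 to 1.76), while Serpina3n-low cells of the libraries had 171.8 and 180.7 CPM. A single control cell held 18.9% of those 37 UMIs. Within Serpina3n-high cells, Gas6 (0.98, 0.69 to 1.28) and Mertk (0.64, -0.27 to 1.72) also passed the fold, 3 of 7 genes tested where 16.5% of 7667 genes were higher. Mfge8 was lower by -0.93 (-1.40 to -0.42), 1 of 7 where 10.9% of genes were. The interval of Mertk included 0. Within Serpina3n-low cells, 0 of 9 genes were past the fold in either direction (1.04% of 12615 genes were higher and 3.87% lower). There Tyro3 had a ratio of 0.29 (0.14 to 0.43), Mertk of 0.12 (0.01 to 0.23) and Axl of -0.57 (-0.87 to -0.27).

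**Figure D3:**
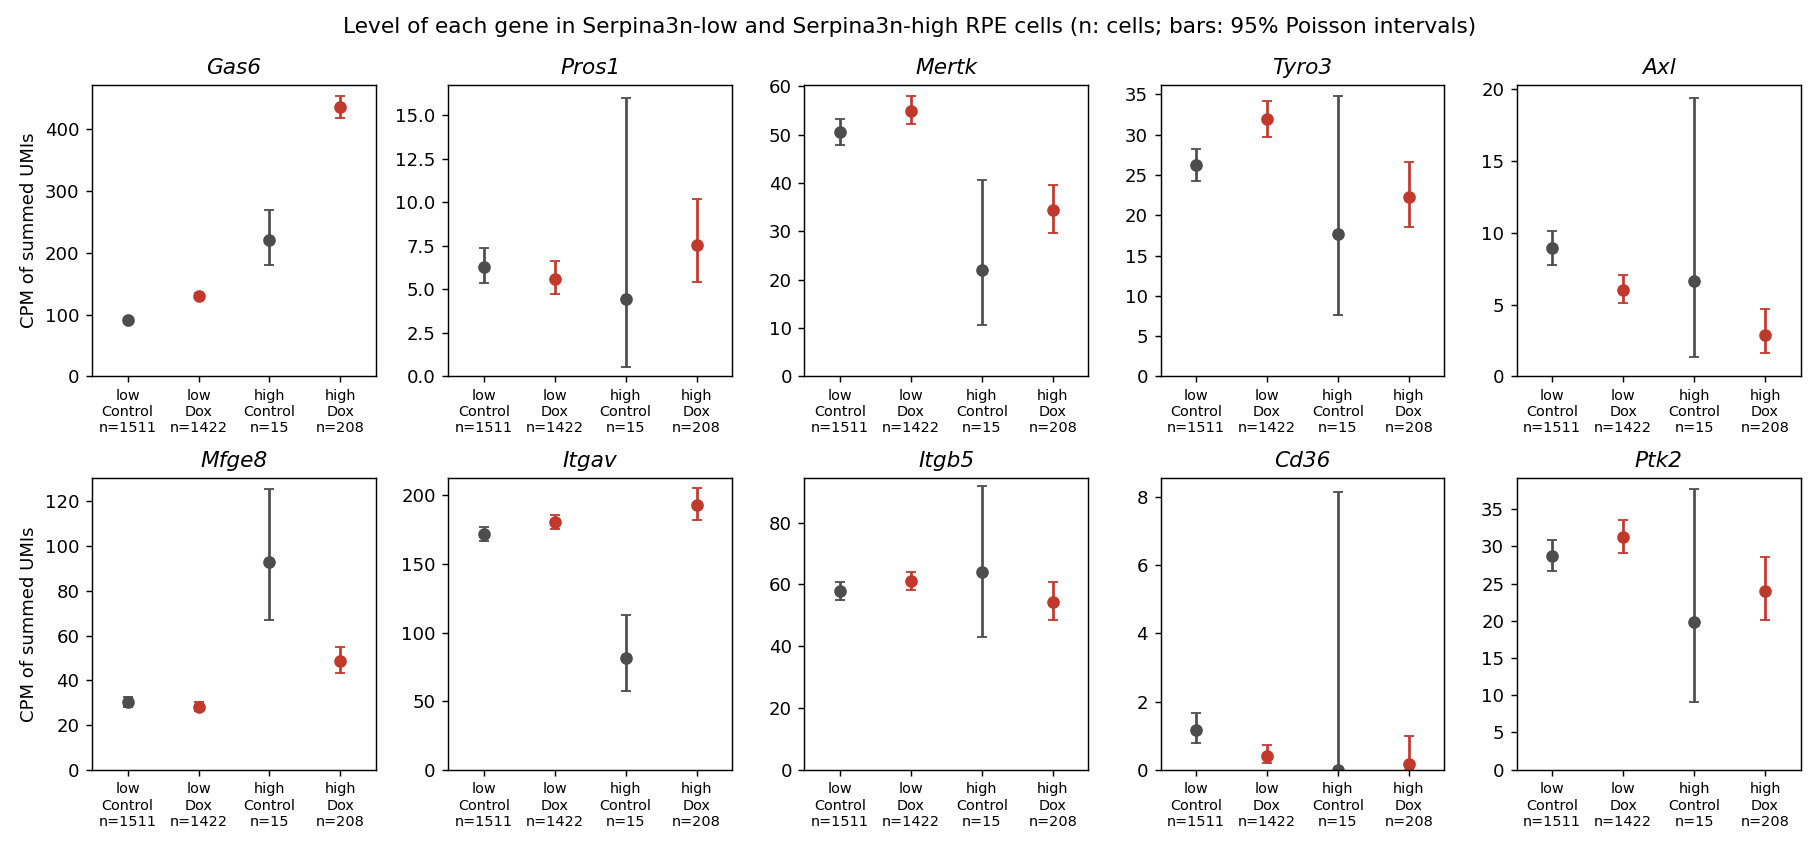
CPM of summed UMIs (vertical axis) of each gene in Serpina3n-low and Serpina3n-high RPE cells of the control (grey) and Dox (red) library, with 95% Poisson intervals and the number of cells under each point. Gas6 rose from 91.0 and 129.9 CPM in Serpina3n-low to 220.9 and 434.9 CPM in Serpina3n-high cells, and the 15 control Serpina3n-high cells gave wide intervals throughout.

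**Figure D4:**
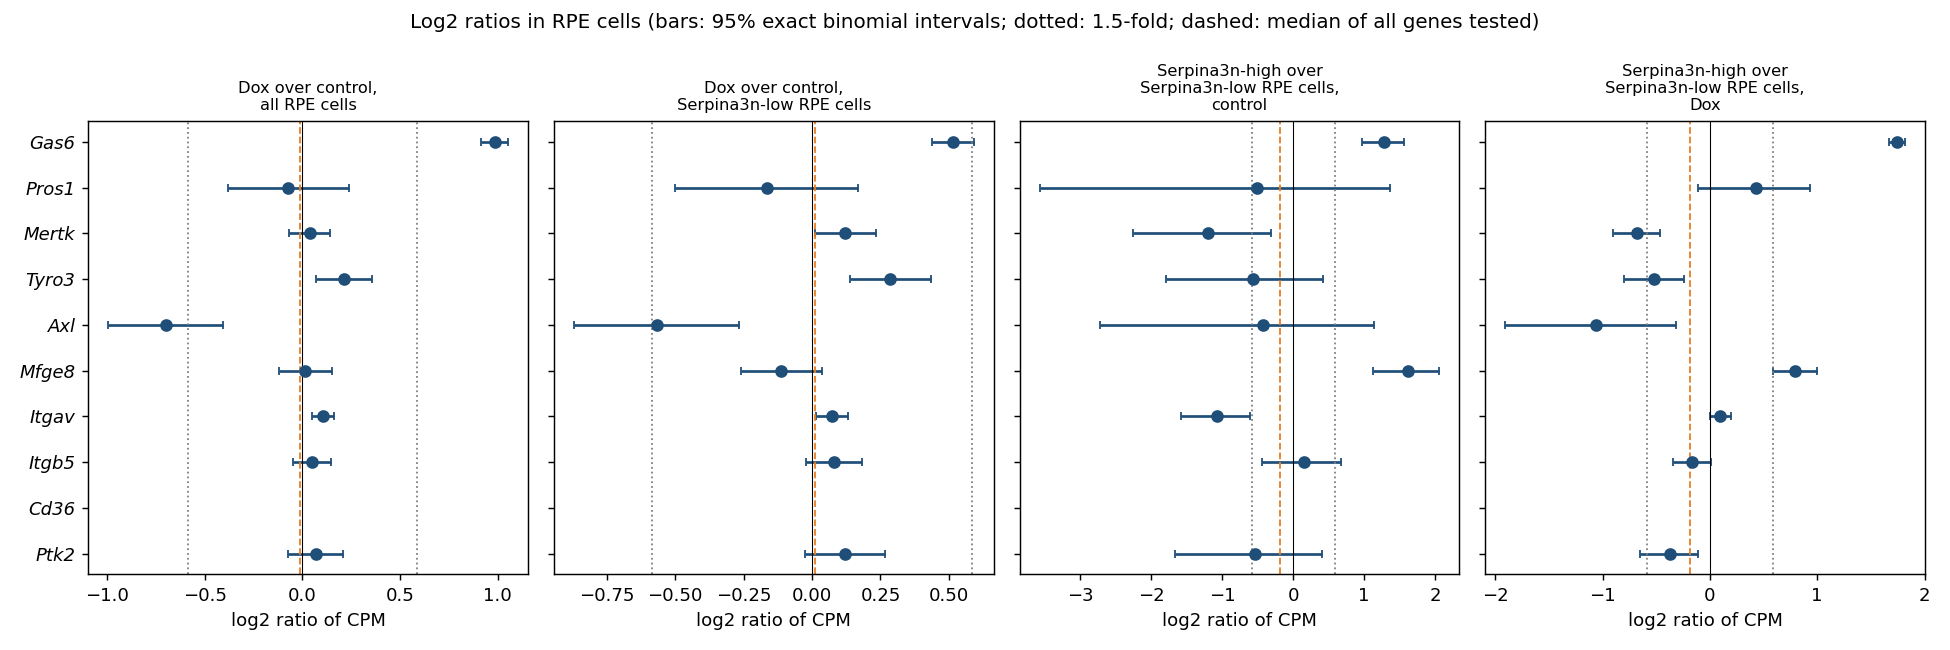
Log2 ratios of CPM (horizontal axis) for 4 comparisons among RPE cells, with 95% exact binomial intervals, dotted lines at 1.5-fold and a dashed line at the median of all genes tested. Cd36 had too few UMIs and is not drawn. Gas6 lay past the right dotted line among all RPE cells and in both Serpina3n comparisons, and short of it for Serpina3n-low cells at 0.51.

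Gas6 was then read over finer steps of Serpina3n. RPE cells were grouped after the levels were seen into 6 bins of their Serpina3n level. In the Dox library Gas6 was at 96.7 CPM (91.6 to 102.1) in the 780 cells with no Serpina3n UMI, 105.4 CPM in the 327 cells up to 100 CPM and 197.5 CPM in the 212 cells from 100 to 300 CPM. It then reached 483.6 CPM (447.7 to 521.6) in the 103 cells from 300 to 1000 CPM, and stayed at 455.0 CPM (420.4 to 491.7) and 428.2 CPM (408.5 to 448.5) in the cells from 1000 to 3000 CPM and above 3000 CPM. The intervals of these top 3 bins overlapped. The 103 cells were shallow, with a median of 5999 UMIs against 28992 UMIs in the top bin.

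In the control library the same bins gave 84.3 CPM (80.4 to 88.3) in 1294 cells, 98.8, 154.8, 143.5 (36 cells), 236.9 (9 cells) and 193.1 CPM (6 cells). The control intervals on either side of the cut (117.2 to 173.8 and 183.9 to 300.3) did not overlap. The upper of these came from 68 Gas6 UMIs in 9 cells. The interval of the highest control bin (132.1 to 272.6, from 32 UMIs in 6 cells) overlapped both. In the Dox library the intervals on either side of the cut overlapped. Whether the libraries differed in the step at the cut was not tested. Between the libraries Gas6 had a log2 ratio of 0.20 (0.09 to 0.30) among cells with no Serpina3n UMI, 0.09 (-0.11 to 0.30) in the next bin, 0.35 (0.11 to 0.59) from 100 to 300 CPM and 1.75 (1.45 to 2.07) from 300 to 1000 CPM. Within the Serpina3n-low group the largest Gas6 ratio was therefore that of the bin just under the cut. Its cells had medians of 21456 UMIs in the control and 5999 UMIs in the Dox library. Serpina3n in NK or T-like cells was at 26.4 CPM in the control and 91.6 CPM in the Dox library. Whether the bin from 300 to 1000 CPM held like cells in both libraries was not tested. Fibroblast markers were at 1231 CPM in that Dox bin and 3249 CPM in that control bin, and at 3175 CPM in the Dox bin from 100 to 300 CPM, and their part in these levels was not tested.

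Mfge8 in the Dox library was at 57.0 CPM from 100 to 300 CPM, and went from 21.2 CPM in cells with no Serpina3n UMI to 58.4 CPM from 300 to 1000 CPM and 48.5 CPM above 3000 CPM, and in the control from 27.0 to 74.5 and 120.7 CPM. Mertk in the Dox library was at 57.5 CPM in cells with no Serpina3n UMI, 65.3 CPM from 100 to 300 CPM, and 36.3 and 33.6 CPM in the top 2 bins. Itgav was at 175.8 CPM in the lowest and 194.4 CPM in the highest bin of the Dox library, and at 177.6 and 78.5 CPM in those of the control.

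**Figure D5:**
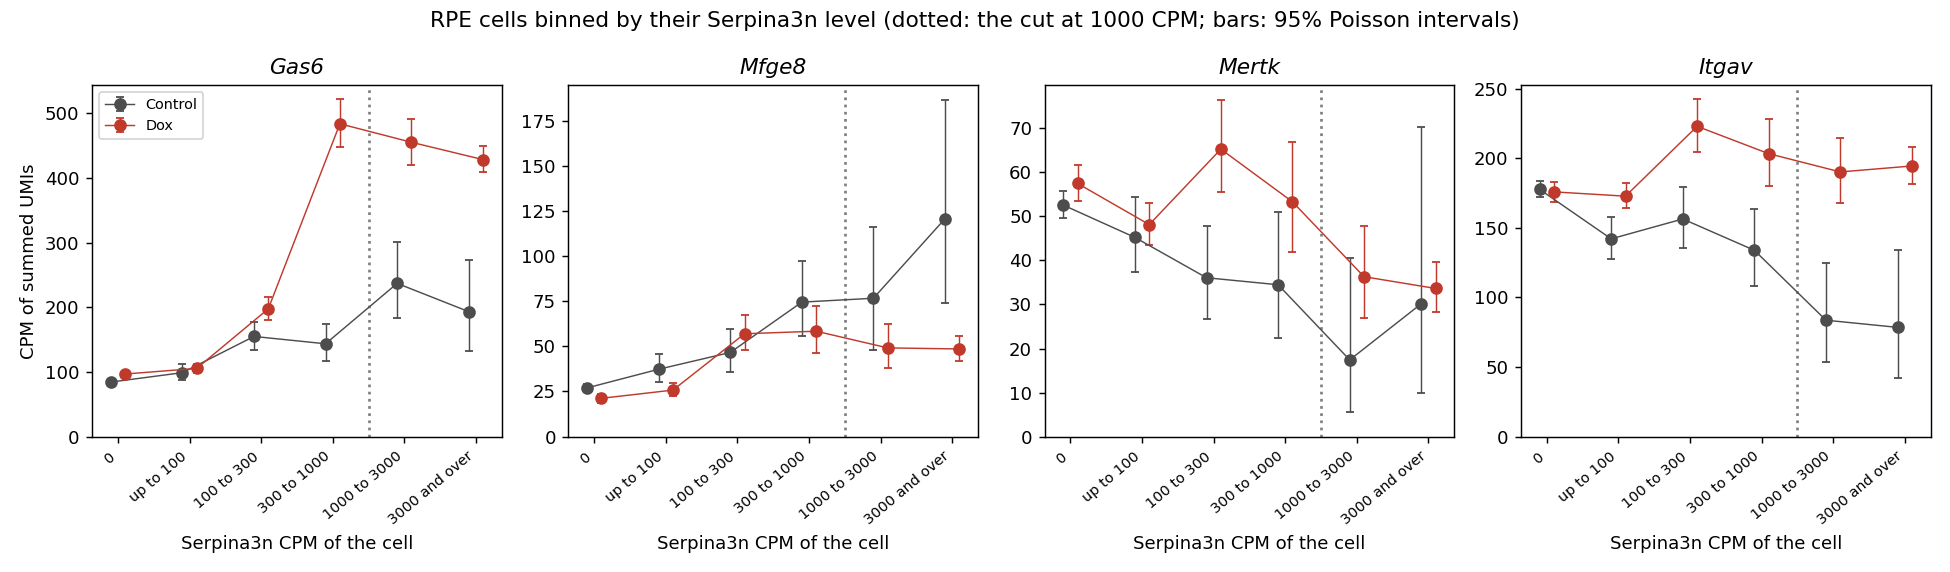
CPM of Gas6, Mfge8, Mertk and Itgav (vertical axes) in RPE cells binned by the Serpina3n CPM of the cell (horizontal axis), control in grey and Dox in red, with 95% Poisson intervals and a dotted line at the cut of 1000 CPM. Dox Gas6 went from 197.5 to 483.6 CPM in the bin just below the cut.

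The genes that act with the receptors were read from 4 lists, beside the 1.65% of all genes tested that were higher and the 4.92% that were lower. Of the engulfment signalling genes (Dock1, Elmo1, Rac1 and others, 15 genes), 13 could be tested and 0 passed the fold between Dox and control RPE cells in either direction. Of 14 genes of the uptake cytoskeleton, likewise 0 passed. Of 18 genes of phagosome maturation, 3 were lower and 0 higher: Ctss, a lysosomal cathepsin, went from 15.1 to 4.01 CPM (log2 ratio -1.91, -2.21 to -1.62), Cybb, the NADPH oxidase subunit of phagocytes, from 2.43 to 0.577 CPM (-2.08, -2.92 to -1.30), and the third was Mreg. Of 23 further ligands and receptors, 20 could be tested and 5 were lower. C1qc went from 16.8 to 1.73 CPM (-3.28, -3.72 to -2.87) and C1qa from 17.6 to 2.05 CPM (-3.10, -3.50 to -2.72), and C1qb, Stab1 and Edil3 were also lower. C1q, Stab1, Ctss and Cybb are abundant in macrophages. The summed level of 11 macrophage markers, 3 of them the C1q genes, was 379.8 CPM in control and 181.9 CPM in Dox RPE cells. In the macrophage-like cluster lay 8 control and 3 Dox RPE cells. The markers did not move alike. Among Serpina3n-low cells Csf1r alone was not lower, at 92.7 CPM in the control and 98.3 CPM in the Dox library. Lyz2 was at 59.4 and 13.1 CPM there, so the sum does not stand for each marker. Within the RPE-like cluster C1qa had a ratio of -2.85 and Ctss of -1.44, with summed macrophage markers at 232.9 and 152.9 CPM. The part of macrophage RNA in these ratios was not tested. In Serpina3n-low cells the lists gave 0, 0, 3 and 6 genes lower and 0 higher, where 3.87% of all genes were lower and 1.04% higher.

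Within the Dox library, the same lists were compared between Serpina3n-high and Serpina3n-low RPE cells, and the lysosomal protease Ctsd had a large ratio. Of all genes tested, 4.71% were higher and 20.3% lower in this comparison. Ctsd, the cathepsin that degrades rhodopsin in the RPE, was at 6256 against 2479 CPM, a log2 ratio of 1.34 (1.32 to 1.35), and in the control at 8695 against 2244 CPM (1.95). Of the 16 phagosome genes tested, 2 were higher (Ctsd and Lamp2) and 1 was lower (Ctss, 2.34 against 4.37 CPM, -0.90), where the median of the list was -0.06. Within the RPE-like cluster the ratio of Ctss was -0.38 and missed the fold. Of 13 engulfment signalling genes 2 were lower, Plcg2 (0.359 against 2.18 CPM, from 2 and 56 UMIs) and Elmo2, a partner of Dock1 (23.5 against 38.7 CPM, -0.72), and the list's median was -0.39 where that of all genes was -0.18. Of 14 cytoskeleton genes 1 was lower, Vcl, which encodes vinculin (12.04 against 20.8 CPM, -0.79), and within the RPE-like cluster its ratio of -0.47 missed the fold.

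The 17 further ligands and receptors tested were also compared between Serpina3n-high and Serpina3n-low Dox cells. In Serpina3n-high cells 4 were higher and 6 lower, beside 4.71% and 20.3% of all genes. C1qc (0.359 against 2.03 CPM, from 2 and 52 UMIs) and C1qb (0.719 against 3.32 CPM) had the largest ratios. The largest among genes with at least 200 UMIs, named after their values were seen, were Scarb2, a lysosomal membrane receptor (80.7 against 36.7 CPM, 1.13), Itgb8, a partner of αv (599 against 1103 CPM, -0.88), Scarb1, a scavenger receptor (41.0 against 75.2 CPM, -0.88), and Lgals3, a further ligand of Mertk (27.8 against 15.6 CPM, 0.84).

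Against Serpina3n-low control cells, the 15 control Serpina3n-high cells gave 0 genes higher and 3 lower of 13 engulfment genes, 2 and 1 of 14 cytoskeleton genes, 4 and 6 of 17 phagosome genes, and 3 and 8 of 19 further ligands and receptors, where 10.7% of all genes were higher and 30.3% lower. Anxa2 (256.2 against 122.2 CPM, 1.07) and Anxa5 (399.7 against 249.4 CPM, 0.68), annexins of the cytoskeleton list, were higher, and Crk, an adaptor (13.3 against 36.2 CPM, -1.45, 6 UMIs), and Crkl (1 UMI) were lower. Atg7 had 0 UMIs in these cells, which allows up to 6.63 CPM, against 10.6 CPM in Serpina3n-low cells. C1qa also had 0 UMIs, against 17.9 CPM. Cybb, Edil3 and Stab1 had 0 UMIs too, but their levels in Serpina3n-low cells lay below that limit. Of the genes tested between the libraries in Serpina3n-high cells, 16.5% were higher and 10.9% lower. The fibroblast marker level was 1915 CPM in the control and 412.7 CPM in the Dox Serpina3n-high cells, and its part in these ratios was not tested. Against the 15 control cells, Dox Serpina3n-high cells had more Crk (31.3 CPM, 1.24), Rab5a (78.3 against 35.3 CPM, 1.15) and Scarb2 (80.7 against 39.8 CPM, 1.02), and less Vcl (12.04 against 26.5 CPM, -1.14), Anxa5 (193.8 CPM, -1.04) and Lgals3 (27.8 against 44.2 CPM, -0.67, -1.34 to 0.09).

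Over the 24 groups (2 RPE groups and 10 others in each library), the genes whose log2 levels followed those of Mertk most closely were Etnk1 (Pearson r 0.87), Frmd4b (0.86) and Rnf152 (0.85), among 6937 genes that reached 50 CPM in a group. Those most like Gas6 were Ltbr (0.82), Tspan4 (0.81) and Myof (0.77), those most like Mfge8 were 2900026A02Rik (0.88), Luzp1 (0.88) and Efnb2 (0.86), and those most like Axl were Txndc5, Anxa1 and Gsn (all 0.93). The same groups were measured in both libraries and share their library's depth and free RNA, so these values describe likeness only.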

How the data were processed

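Single-cell RNA of mouse RPE, choroid and sclera was measured in 1 control and 1 Dox library. Alignment to mm10 and UMI counting were done by the authors with Cell Ranger (4.0.0 in the deposited file headers), and the deposited values are unnormalised counts per gene and barcode. The control library held 20381 barcodes and 117731270 UMIs, the Dox library 15649 and 103997248.

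Cells with more than 500 UMIs, over 200 and under 6000 genes, less than 0.2 of their UMIs from mitochondrial genes and a log10 genes to log10 UMIs ratio over 0.8 passed. Clustering followed the paper's steps in Seurat 5.3.0 with sctransform 0.4.2 (3000 integration features less the members among them, 40 components, resolution 0.1), and clusters were named from marker genes. The 100 cells of the RPE-like cluster with fewer than 10 Rpe65 UMIs entered no group. Scrublet (scanpy 1.11.5) gave each cell a doublet score. It called 0 control and 1134 Dox cells, so it did not work for the control. No cell was removed in the main analysis, and an alternative left out the 3258 control and 1904 Dox cells with the highest scores.

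UMIs were summed per group and divided by the group's total. Called genes passed 1.5-fold with at least 50 UMIs over both groups. Intervals are 95%. A count of 0 allows 3 UMIs. Interval code was tested on simulated data. The members and gene lists were chosen with earlier results of these data known. Genes named from the lists are the 2 with the largest ratio past the fold in each comparison, and likeness is Pearson's r of log2(CPM + 10). Alternatives changed the Rpe65 and Serpina3n cuts, cell filters, scaling, depth, minimum and fold. Promoter sequences are RefSeq's (GRCm38.p6). Protein sequences were not analysed here.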

Additional observations from a re-analysis of the deposited data

How the results depend on the processing

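The counts of members past the fold changed under these settings, and so did the shares of all genes past it. These shares stand beside the counts, except for the mean of cells and thinned cells. Over all RPE cells, 1 gene was lower in the Dox library, which became 0 with the mean of the cells' own CPM, 2 with no minimum of UMIs and 0 at a fold of 2, where the count higher also became 0. Of all genes, 16.5% were lower with no minimum, and 1.86% were lower and 0.438% higher at a fold of 2. In Serpina3n-low cells, 0 genes were lower in the Dox library, which became 1 with at least 5 or 20 Rpe65 UMIs, a split at 500 or 2000 CPM, no filter on cells, only the RPE-like cluster, without the highest doublet scores, with cells thinned to 5000 UMIs and with no minimum. Of all genes, 2.88% and 5.36% were lower at 5 and 20 Rpe65 UMIs, and 3.71% and 3.98% with those splits. The share was 4.22% with no filter, 5.78% in the RPE-like cluster, 2.89% without those scores and 15.7% with no minimum. The count higher of 0 became 1 (Gas6) with a split at 2000 CPM, a fibroblast level below the median, without the highest doublet scores, with the mean of cells and with thinned cells. Of all genes, 1.12% were higher with that split, 1.46% at the low fibroblast level and 1.11% without those scores. In Serpina3n-high cells, 1 gene was lower, which became 2 with a split at 500 CPM or a low fibroblast level, 3 with no minimum and 0 at a fold of 2, where the 3 higher became 1. Of all genes, 9.40%, 15.6%, 37.1% and 3.14% were lower in these settings, and 8.52% were higher at a fold of 2. The 3 higher in Serpina3n-high cells became 2 with at least 20 Rpe65 UMIs, a split at 2000 CPM, only the RPE-like cluster and no minimum, and 4 with a split at 500 CPM, without the highest doublet scores and with the mean of cells. Where the count was 2, 15.6%, 20.2%, 16.7% and 13.4% of all genes were higher. The share was 12.9% with the split at 500 CPM and 20.3% without those scores. Between Serpina3n-high and Serpina3n-low control cells, 2 genes were lower, which became 4 with at least 5 Rpe65 UMIs, a split at 500 CPM or no filter, 5 with the mean of cells, and 3 with at least 20 Rpe65 UMIs, a split at 2000 CPM, only the RPE-like cluster, without the highest doublet scores and with thinned cells. Where the count was 4, 33.4%, 23.5% and 26.8% of all genes were lower. The share was 30.0% at 20 Rpe65 UMIs, 35.1% with the split at 2000 CPM, 29.4% in the RPE-like cluster and 31.4% without those scores. The 2 higher in the control became 3 with a split at 500 CPM, a low fibroblast level and without the highest doublet scores, where 9.36%, 17.0% and 12.3% of all genes were higher. In the Dox library the 2 higher became 1 with at least 5 Rpe65 UMIs, the mean of cells, thinned cells and a fold of 2, and 3 with at least 20 Rpe65 UMIs, only the RPE-like cluster, without the highest doublet scores and centred on all genes. Of all genes, 4.19% were higher at 5 Rpe65 UMIs and 2.15% at a fold of 2. Where the count was 3, the shares were 4.97%, 5.39%, 5.40% and 7.80%. The 2 lower became 1 with at least 5 Rpe65 UMIs, no filter, without the highest doublet scores, centred on all genes, thinned, with at least 200 UMIs and at a fold of 2, and 3 with a split at 2000 CPM and with no minimum. Axl between Serpina3n-high and Serpina3n-low Dox cells reversed to 0.23 at a low fibroblast level and to 1.42 less the fibroblast share, an alternative chosen after seeing the data. At the low fibroblast level only 7 genes reached the minimum of UMIs in this comparison, and the Axl ratio there may rest on fewer. The cause of these changes was not tested.

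Gas6 over all RPE cells ranged from 0.92 to 1.17 over the other alternatives, and was 1.23 less the fibroblast share. Of the log2 ratios under all alternatives, 539 stayed within their counting interval and fold, 72 did not and 2 reversed. Of 200 CPM levels, 65 left their interval with the mean of the cells' own CPM and 36 without the highest doublet scores. None left it, 0 of 200, without mitochondrial genes or with a mitochondrial share under 0.1. Among the other values followed over the alternatives, 31 CPM values moved and 69 did not, and 18 percentages moved and 2 did not. With 1 library per condition no library could be left out. No paired analysis was possible because each condition had 1 library. Levels of other cell types without the filter on cells were not run, since those cells were not clustered. The 15 control Serpina3n-high cells and the Schwann-like cells had few UMIs and wide intervals.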
